A study of Mus musculus with 15 samples.

Results

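The genes described here are those of mitochondrial complex I, taken as every row of the mouse count table whose symbol begins with Nduf, a class letter (a, b, c, s, v or af) and a digit. The pattern found 44 of the 24421 genes. They were 35 subunits of the complex, 7 assembly factors (Ndufaf1 to Ndufaf7) and 2 relatives, Ndufa4 and Ndufa4l2, which carry the name but are set apart here because Ndufa4 is now counted with complex IV. All 44 passed the filter on low counts, which kept 16752 genes. Ndufab1, a carrier protein that is also a subunit, and Ndufaf8, listed in the table as 1810043H04Rik, have symbols outside the pattern and are given separately. The subunits encoded by mitochondrial DNA were not analysed here.

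Complex I takes electrons from NADH, passes them along iron-sulfur clusters to ubiquinone and pumps protons across the inner mitochondrial membrane. Its N module binds NADH, its Q module reduces ubiquinone, and the proximal and distal parts of the membrane arm carry the proton pumps. Assembly factors hold and modify parts of the complex while it is built and are not in the finished enzyme. Proximal tubule cells of the kidney are packed with mitochondria, and the energy for reabsorption comes largely from respiration.

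Total RNA of kidneys of wild-type (WT) mice was sequenced at day 14. The groups were sham operation on normal diet (sham, n = 3), unilateral ureteral obstruction on normal diet (UUO, n = 6) and the same obstruction on a Si-based diet (UUO_Si, n = 6). No sham group received the Si-based diet, so UUO_Si differed from sham in operation and diet together. The sources used here did not give strain, sex or age, nor whether each library came from its own animal, so p-values measure the spread between these samples.

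Library totals were 5.53 M to 8.31 M counts in sham, 11.2 M to 15.4 M in UUO and 7.75 M to 11.5 M in UUO_Si. Sham and UUO totals did not overlap, so depth and operation went together. UUO and UUO_Si totals crossed only at UUO replicate 6 (11.2 M) and UUO_Si replicate 6 (11.5 M), so depth and diet largely went together too. Single subunits had 64 to 2108 counts per library (median 438), assembly factors 51 to 313 (median 111), and the relatives 13 to 508. Some libraries (4 of 15) stood apart by the number of olfactory and vomeronasal receptor genes detected, with 791 to 1264 against 84 to 139 in the others. These were UUO_Si replicate 6, UUO replicates 5 and 6, and sham replicate 3. Values are CPM on TMM-scaled library sizes, and fold changes are log2 values ± standard error from the quasi-likelihood fit in edgeR. A gene was called at a Benjamini-Hochberg adjusted p under 0.05 over all 16752 genes.

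Most nuclear-encoded complex I transcripts were lower in UUO than in sham, in the N and Q modules and both parts of the membrane arm. Of the 35 subunits 32 fell, none rose and 3 did not pass, with a median log2 fold change of -1.02. Of the 7 assembly factors 6 fell and 1 did not pass, with a median of -0.73. Across all genes tested 26.4% fell, 27.5% rose and 53.9% changed in either direction, and the median was -0.04. In 32 subunits and 5 assembly factors all 6 UUO libraries lay below all 3 sham libraries, as did 22.3% of all genes. UUO levels of the subunits were 35.5% (Ndufa5) to 96.9% (Ndufa3) of the sham mean. In bulk tissue, fewer cells of a type and less RNA per cell cannot be told apart.

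**Figure D1:**
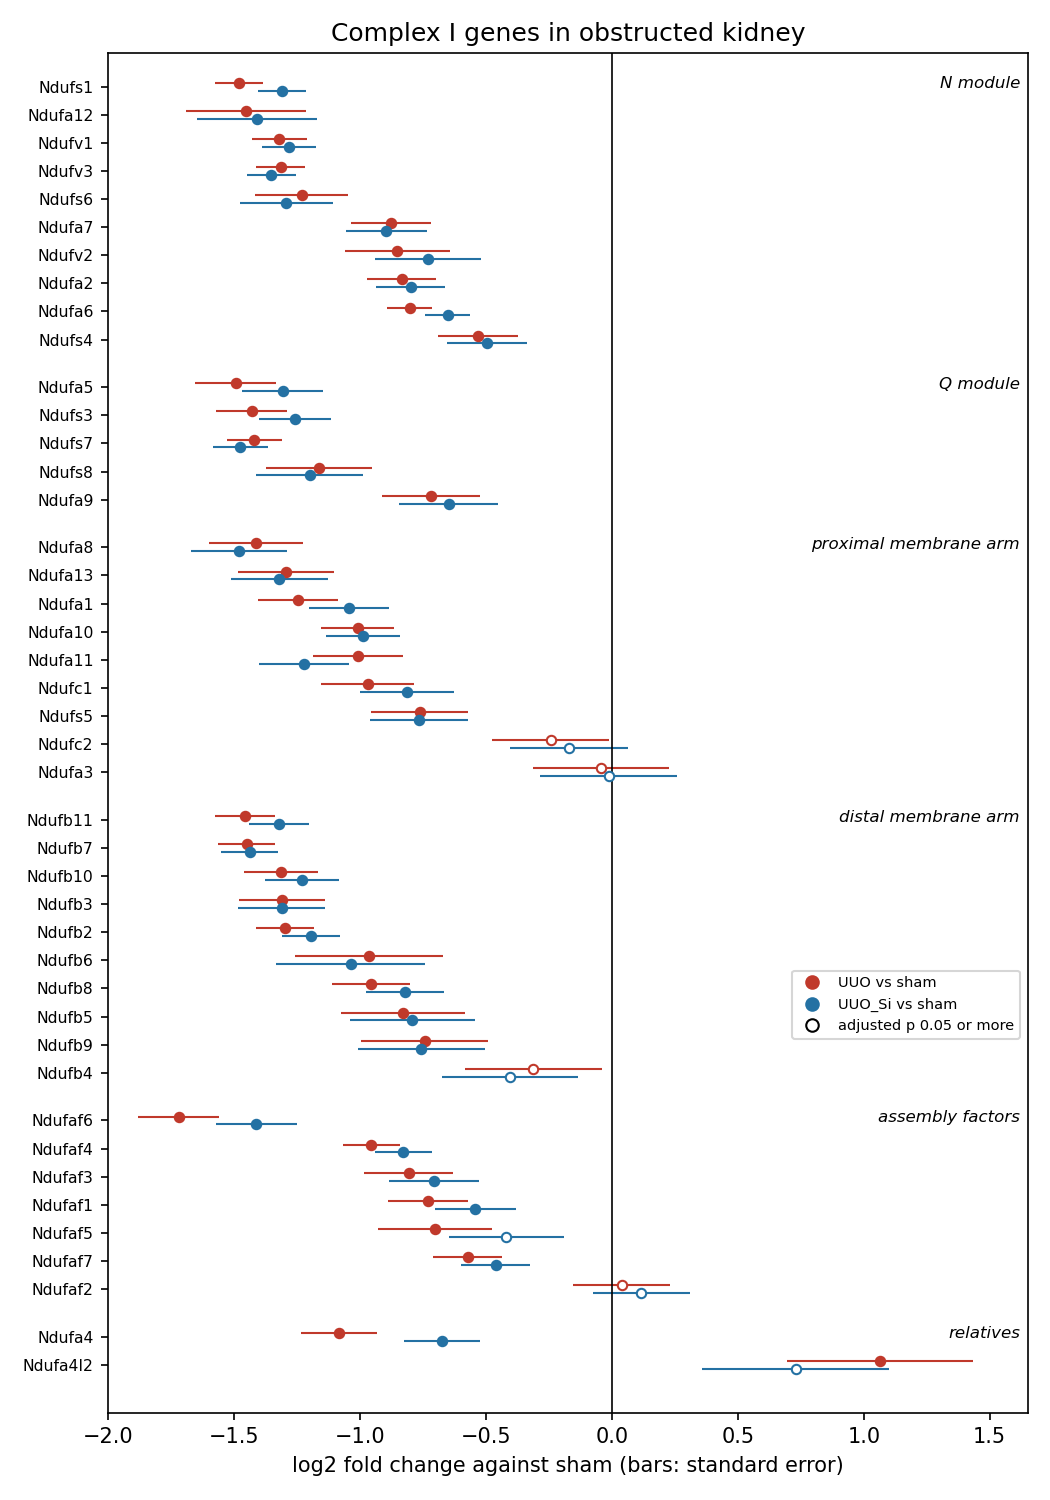
Log2 fold changes against sham (x axis) of 43 of the genes, in rows by part of the complex. Red points are UUO, blue points UUO_Si, bars are standard errors and open points did not pass. Subunits lay between -1.49 and -0.01, and Ndufa4l2 alone had a fold change above 0.2.

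The 7 nuclear-encoded core subunits, which are shared with bacterial enzymes and most of which carry cofactors, all fell. Ndufs1, the N module subunit with several iron-sulfur clusters (GRCm38 chromosome 1, 63143596 to 63176833), was at 212, 215 and 211 CPM in the 3 sham libraries. Its lowest, median and highest UUO levels were 65.6, 75.7 and 88.03 CPM. The sham libraries were nearly equal and no UUO library came near them, a fold change of -1.48 ± 0.09 (edgeR adjusted p = 1.49e-09). The counts of Ndufs1 were fractional in 60% of libraries, and its exons overlap those of Eef1b2 and Ino80dos on the opposite strand. Ndufv1, which binds NADH and the flavin (chromosome 19, 4007384 to 4012806), went from 170.4, 183 and 169 CPM to 61.4, 67.7 and 81.2 CPM, lowest, median and highest (-1.32 ± 0.11). Its N module partner Ndufv2 (chromosome 17, 66078638 to 66101559) was at 106, 101 and 128 CPM in sham and 40.9, 61.2 and 85.8 CPM in UUO (-0.85 ± 0.21). Both stayed below sham in every UUO library, but Ndufv2 was spread 2.098-fold between its lowest and highest UUO library.

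Core subunits of the Q module lie nearest to the ubiquinone site or feed electrons to it. Ndufs3 (chromosome 2, 90894634 to 90904827) was at 84.7, 73.04 and 71.99 CPM in sham and 23.02, 28.1 and 33.2 CPM in UUO (-1.43 ± 0.14). Ndufs7, which holds the last cluster before ubiquinone (chromosome 10, 80249121 to 80256794), was at 113, 112 and 93.6 CPM and 37.7, 39.7 and 41.5 CPM (-1.42 ± 0.11). No UUO library reached any sham library for either gene, and Ndufs7 varied the less of the pair among the UUO libraries. Ndufs8 (chromosome 19, 3908863 to 3912774) went from 71.5, 80.4 and 66.9 CPM to 23.9, 31.7 and 44.8 CPM (-1.16 ± 0.21), again without overlap. The core subunits had a median of -1.32 and the 28 accessory subunits, of which 25 fell, a median of -0.99.

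By module, all 10 N module genes fell (median -1.05), all 6 Q module genes (-1.29), 7 of 9 genes of the proximal membrane arm (-1.01) and 9 of 10 of the distal membrane arm (-1.13). The largest fall of a subunit was that of Ndufa5, an accessory subunit of the Q module (chromosome 6, 24518666 to 24528013), from 106, 113 and 106 CPM to 30.1, 39.3 and 44.8 CPM (-1.49 ± 0.16, edgeR adjusted p = 5.14e-07). Next after Ndufs1 came Ndufb11 of the distal arm (chromosome X, 20615326 to 20617619), from 108, 104 and 106 CPM to 33.96, 38.8 and 45.4 CPM (-1.46 ± 0.12). In each of these genes the sham libraries stood together, more than 2-fold above the highest UUO library. Among the N module genes the smallest fall was that of Ndufs4 (-0.53 ± 0.16), which is needed for a stable N module, from 99.01, 103 and 97.4 CPM to 52.1, 67.8 and 84.97 CPM. The other subunits that fell had log2 fold changes from -1.45 (Ndufa12) to -0.72 (Ndufa9). The fall of Ndufb9 (-0.74 ± 0.25) did not hold when sham replicate 3 was left out (-0.69, edgeR adjusted p = 0.0592).

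The 3 subunits that did not pass were all accessory subunits of the membrane arm. Ndufb4 was at 90.7, 93.02 and 73.5 CPM in sham and, in UUO replicates 1 to 6, at 57.3, 40.2, 51.2, 75.1, 90.04 and 101 CPM (-0.31 ± 0.27, edgeR adjusted p = 0.348). Ndufc2 was at 37.3, 38.5 and 32.2 CPM in sham and at 23.6, 22.02, 23.97, 33.5, 38.7 and 40.5 CPM (-0.24 ± 0.23, edgeR adjusted p = 0.392). Ndufa3 was at 23.8, 23.7 and 24.6 CPM in sham and at 18.00, 13.6, 17.96, 26.1, 31.01 and 33.01 CPM (-0.04 ± 0.27, edgeR adjusted p = 0.904). In all 3 genes UUO replicates 1 to 3 lay below every sham library. Replicates 5 and 6 were above the sham mean, so the UUO group spanned the sham level. Without the 4 libraries rich in receptor genes Ndufb4 (-0.70, edgeR adjusted p = 0.0128) and Ndufc2 (-0.54, edgeR adjusted p = 0.0327) fell in edgeR's quasi-likelihood test. The direction of Ndufa3 changed with the scaling, from -0.04 to 0.02 with upper-quartile factors. Its exons overlap those of Tfpt on the opposite strand, and whether Tfpt reads entered its count is not known. Ndufs3 (with Kbtbd4) and Ndufb11 (with Rbm10), which fell, have such overlaps too.

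**Figure D2:**
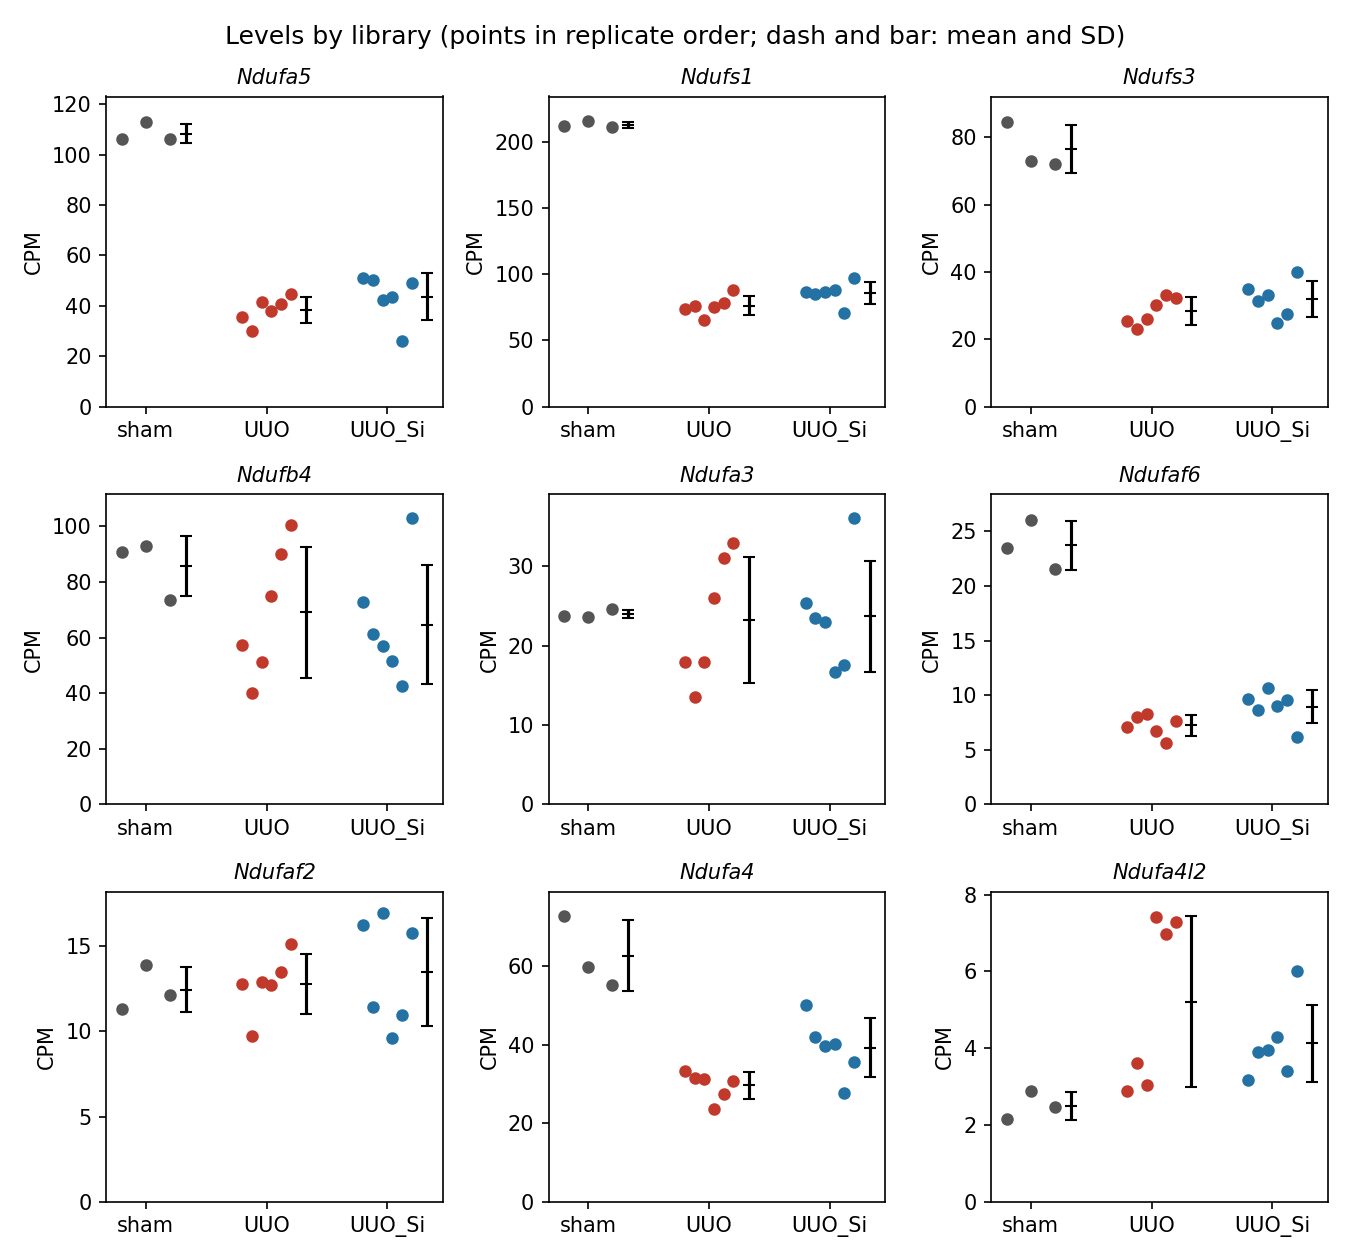
CPM by library (points, in replicate order) for 9 genes in sham (3 libraries), UUO (6) and UUO_Si (6), with mean and SD beside each group. Ndufa5, Ndufs1 and Ndufs3 show sham apart from both obstructed groups, while Ndufb4 and Ndufa3 span the sham level, from 40.2 to 103 CPM and from 13.6 to 36.2 CPM.

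This spread was shared by many subunits. Of the 35 subunits, 33 had UUO_Si replicate 6 among the 4 highest of the 12 obstructed libraries, 28 had UUO replicate 6, 25 UUO replicate 5, 19 UUO_Si replicate 1 and 13 UUO replicate 4. UUO_Si replicate 6 was the highest of all in 23 subunits, and UUO replicate 2 or UUO_Si replicate 5 was the lowest in 14 and 12. The ratio of the highest to the lowest obstructed library ran from 1.33 to 2.67 among subunits (median 1.85) and from 1.36 to 1.91 among assembly factors (median 1.68). Cytosolic ribosomal protein genes, a list of 78 tested genes added after these values had been seen, were highest in some of these libraries. Their median log2 level above the sham mean was 0.92, 1.18 and 1.10 in UUO replicates 4 to 6 and 1.27 in UUO_Si replicate 6. It was 0.23 to 0.63 in the other obstructed libraries. UUO_Si replicate 1, among the 4 highest for 19 subunits, was one of those, at 0.63. Fibroblast markers summed to 10054 to 11202 CPM in UUO replicates 4 to 6 and to 5217 to 7198 CPM in the other obstructed libraries, UUO_Si replicate 6 among them (6434 CPM). The part of either in the subunit levels was not tested.

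Among the assembly factors the fall was largest for Ndufaf6, a protein of early assembly with similarity to phytoene synthases (chromosome 4, 11051045 to 11076205). It was at 23.5, 26.1 and 21.6 CPM in sham and 5.58, 7.34 and 8.30 CPM in UUO, which is 30.4% of the sham mean and a larger fall than that of any subunit (-1.72 ± 0.16, edgeR adjusted p = 1.04e-07). Ndufaf4 and Ndufaf3 act together on the Q module. Ndufaf4 (chromosome 4, 24898083 to 24905001) went from 33.5, 43.2 and 39.8 CPM to 18.04, 19.9 and 21.9 CPM (-0.95 ± 0.11), and Ndufaf3 (chromosome 9, 108565537 to 108567434) from 12.04, 11.3 and 13.5 CPM to 5.22, 7.25 and 8.27 CPM (-0.81 ± 0.18). Ndufaf1, part of the membrane complex that builds the proximal arm (chromosome 2, 119655446 to 119662827), went from 15.8, 12.9 and 13.1 CPM to 7.28, 8.17 and 10.5 CPM (-0.73 ± 0.16). These 4 factors had no UUO library within the sham range.

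The other 3 factors had the smaller changes. Ndufaf7, a methyltransferase (chromosome 17, 78937136 to 78948052), was at 32.96, 20.6 and 27.1 CPM in sham and 16.3, 18.01 and 19.9 CPM in UUO (-0.57 ± 0.14). Its counts were fractional in all 15 libraries, and reads divided with another feature cannot be told apart from its own. The same limit holds for the subunits Ndufs5 (fractional in 73.3% of libraries) and Ndufs1 (60%). Ndufaf5, which modifies Ndufs7 (chromosome 2, 140170649 to 140203689), was at 7.74, 14.9 and 17.2 CPM in sham, where replicate 1 lay inside the UUO range of 6.27, 8.04 and 10.3 CPM (-0.70 ± 0.23). It no longer passed when sham replicate 2 (-0.59, edgeR adjusted p = 0.0811) or 3 (-0.47, edgeR adjusted p = 0.123) was left out, or the 4 receptor-gene libraries together (-0.56, edgeR adjusted p = 0.0828). Ndufaf2, a late factor that is a paralog of the subunit Ndufa12, did not pass (chromosome 13, 108002715 to 108158623). It was at 11.3, 13.9 and 12.1 CPM in sham and 12.8, 9.70, 12.9, 12.7, 13.5 and 15.1 CPM in UUO replicates 1 to 6 (0.04 ± 0.19, edgeR adjusted p = 0.879), with overlapping groups, and its sign changed with the filter on low counts (-0.01 at the stricter minimum of 50). Ndufa12 went from 79.1, 85.3 and 85.1 CPM to 18.3, 29.5 and 47.9 CPM (-1.45 ± 0.24).

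Set side by side, the factors had the lower levels and the smaller median change, a difference given without a test. Per kilobase of the principal GENCODE transcript, subunits had a median of 83.9 CPM in sham, from 12.7 (Ndufb2) to 221 (Ndufa6), and factors a median of 11.4, from 8.26 (Ndufaf3) to 21.9 (Ndufaf6). Ndufb2, with a transcript length of 2413 bases, was the only subunit whose sham mean per kilobase lay within the range of the factors. This separation depends on the lengths used. In plain CPM the sham means of the factors ran from 12.3 (Ndufaf3) to 38.8 (Ndufaf4). Several subunits lay inside that range, among them Ndufa3 (24.0) and Ndufa1 (36.6). The ratio of the class medians per kilobase was 7.36 in sham, 5.53 in UUO and 4.93 in UUO_Si. Ndufaf6 was the most abundant factor in sham and Ndufaf2 in UUO, at 18.9 CPM per kilobase against 6.67 for Ndufaf6. Per library, the median log2 position of the factors against sham exceeded that of the subunits by 0.21 to 0.73 in UUO, by 0.04 to 0.70 in UUO_Si and by -0.04 to 0.10 in sham. Sham lies near 0 in this measure by construction, since each gene is set against its own sham mean, so its range is no separate test. The UUO values did not overlap that range, while UUO_Si replicate 6, at 0.04, lay within it. The measure sets a median of 7 genes against one of 35.

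**Figure D3:**
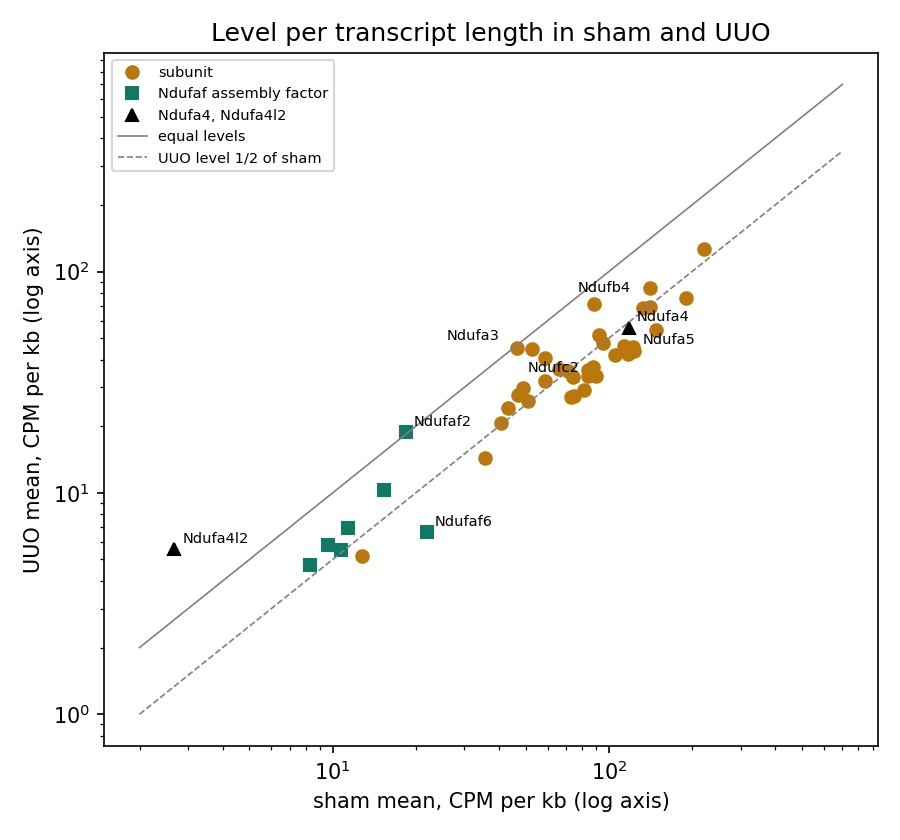
Mean level per kilobase of transcript in sham (x axis) and UUO (y axis), both log axes in CPM per kilobase, for subunits (circles), assembly factors (squares) and the relatives (triangles). Most subunits lie near or below the dashed line of a 50% level, and Ndufaf2 lies on the solid line of equal levels.

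**Figure D4:**
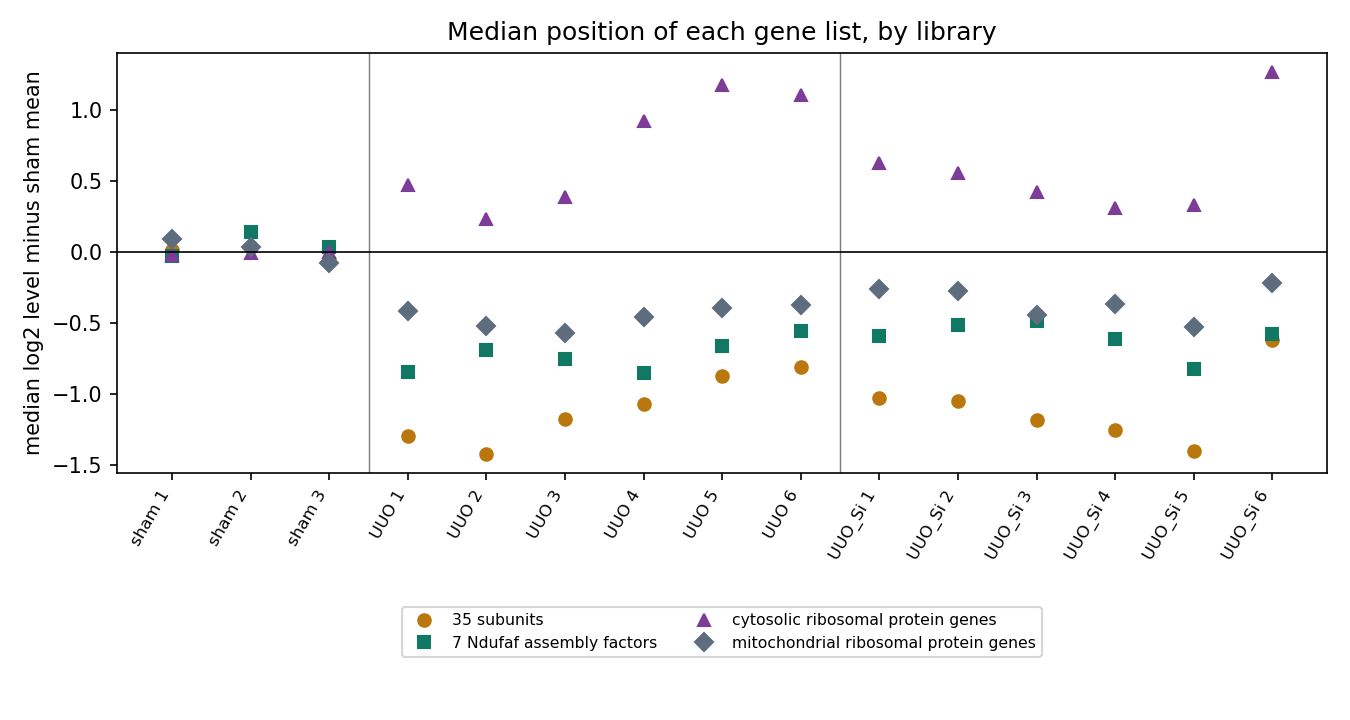
Median over each list of the log2 level minus its sham mean, for each of 15 libraries. Factors lie above subunits in all 12 obstructed libraries, by 0.04 in UUO_Si replicate 6 and by up to 0.73 in UUO replicate 2, and cytosolic ribosomal protein genes are highest in UUO replicates 4 to 6 and UUO_Si replicate 6.

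The relatives differed in direction. Ndufa4, a subunit of cytochrome oxidase, was at 72.8, 59.8 and 55.3 CPM in sham and 23.5, 31.01 and 33.2 CPM in UUO, without overlap (-1.08 ± 0.15). Ndufa4l2, its hypoxia-inducible paralog, was at 2.15, 2.88 and 2.46 CPM in sham and 2.89, 3.62, 3.05, 7.41, 6.97 and 7.28 CPM in UUO replicates 1 to 6. Replicates 4 to 6 stood well above replicates 1 to 3, of which the lowest was just above the highest sham library. Ndufa4l2 rose (1.06 ± 0.37, edgeR adjusted p = 0.0219), but not without sham replicate 1 (0.98, edgeR adjusted p = 0.0854) or 3 (1.06, edgeR adjusted p = 0.0532). With the 4 receptor-gene libraries left out it was at 0.78 (edgeR adjusted p = 0.109). Per kilobase, Ndufa4 was at 118 ± 17.1 CPM and Ndufa4l2 at 2.67 ± 0.391 CPM in sham, and at 55.8 ± 6.65 CPM and 5.57 ± 2.38 CPM in UUO (SD).

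Many genes of respiration carry sites for NRF1, a factor for nuclear genes of mitochondria, so the promoters were searched for its core letters (GCGCA, any base, then GCGC) on both strands. RefSeq promoters on GRCm38.p6 were at hand for 38 of the 44 genes, and the 250 bases before the start were used. The letters were present in 7 of 33 subunit promoters (21.2%), which belonged to 6 of 31 genes, in 1 of 6 factor promoters (16.7%) and in 3.74% of all 32851 promoters. The ERR letters AAGGTCA, bound by estrogen-related receptors, were in 3 subunit promoters (9.09%) and 4.08% of all. Neither the GABP letters CCGGAAGT (2.88% of all) nor the YY1 letters AAGATGGCG (0.606% of all) were in any member's window. Printed here, 5′ to 3′ and ending at the RefSeq start, are a factor and a subunit that fell (chr4:24897833-24898082, plus strand, and chr13:73328483-73328732, minus strand) and the subunit with the most matches, which did not pass (chr16:37654369-37654618, minus strand). Capitals mark NRF1 letters and, in Ndufb4, also the ERR letters, and no matches overlap. In Ndufs6 the match is on the opposite strand, so the printed letters are its reverse complement.
Ndufaf4: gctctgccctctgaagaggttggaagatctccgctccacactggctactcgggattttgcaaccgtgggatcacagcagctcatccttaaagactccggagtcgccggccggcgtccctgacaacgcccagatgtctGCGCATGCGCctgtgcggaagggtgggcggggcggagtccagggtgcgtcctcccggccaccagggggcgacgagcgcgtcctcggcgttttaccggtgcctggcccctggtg
Ndufs6: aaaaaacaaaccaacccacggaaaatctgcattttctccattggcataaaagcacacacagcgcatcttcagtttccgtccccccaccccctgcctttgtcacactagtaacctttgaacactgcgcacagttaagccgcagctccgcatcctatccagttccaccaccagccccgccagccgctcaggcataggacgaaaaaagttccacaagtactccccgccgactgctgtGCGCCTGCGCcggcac
Ndufb4: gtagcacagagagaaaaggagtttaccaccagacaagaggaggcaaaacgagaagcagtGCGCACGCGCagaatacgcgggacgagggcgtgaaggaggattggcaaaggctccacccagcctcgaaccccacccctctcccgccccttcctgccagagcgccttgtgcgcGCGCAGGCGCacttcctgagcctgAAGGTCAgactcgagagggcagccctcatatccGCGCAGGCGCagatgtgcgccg

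Ndufb4 held 3 NRF1 matches, 191, 79 and 22 bases before the start, and 1 ERR match at 55 bases. Ndufs6 held 1 NRF1 match at 16 bases and fell by 1.23 on the log2 scale, from 56.9, 45.4 and 41.3 CPM to 15.6, 21.6 and 24.8 CPM. Ndufa5, Ndufa8, Ndufa11 and Ndufs5, which all fell, held the letters too. A match is a string of letters and was not measured as a bound site.

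Outside the pattern, Ndufab1 fell from 106 ± 9.25 CPM to 41.3 ± 9.26 CPM (SD; -1.35 ± 0.24), and Ndufaf8 did not pass (-0.21 ± 0.38 under 1810043H04Rik). In the complexes fixed as comparison lists, 3 of 4 genes of complex II (median -0.99), 9 of 9 of complex III (-1.32), 11 of 11 of complex IV with Ndufa4 (-1.12) and 14 of 15 of complex V (-1.16) fell, and none rose. The largest falls were those of Sdhb (-1.49), Uqcr11 (-1.97), Cox5b (-1.83) and Atp5g1 (-1.98). Genes of the mitochondrial ribosome, which makes the mitochondrially encoded subunits, fell in 13 of 20 with a smaller median of -0.47, led by Mrps35 (-1.19).

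Assembly factors of complex I with other names fell in 7 of 13 members in the table, with a median of -0.63. They fell for Ecsit (-1.55 ± 0.12) and Acad9 (-0.92 ± 0.08), partners of Ndufaf1, and for Foxred1 (-1.44 ± 0.11), Atp5sl (Dmac2; -1.45), Aifm1 (-1.17), Sfxn4 (-1.14) and Timmdc1 (-0.48). Values that did not pass were -0.63 for Nubpl, -0.45 for Tmem126b, -0.38 for Tmem70, 0.03 for Tmem186, 0.13 for Tmem126a and 0.26 for Lyrm2. Some factors of the same assembly complex thus passed (Ecsit, Acad9, Ndufaf1) and others did not (Tmem126b, Tmem186), and the difference between them was not tested.

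Of 14 regulators of mitochondrial genes 8 fell and none rose. The coactivator Ppargc1a went from 352 ± 61.1 CPM to 79.7 ± 5.53 CPM and the nuclear receptor Esrra from 44.8 ± 8.53 CPM to 16.1 ± 2.56 CPM (-1.48 ± 0.14). The other falls were in Esrrb (-2.85), Ppara (-2.84), Ppargc1b (-1.88), Polrmt (-1.55), Peo1 (Twnk; -1.11) and Esrrg (-0.79). Transcripts of the DNA-binding factors Nrf1 (-0.07 ± 0.16) and Gabpa (0.09 ± 0.09) and of Tfam (-0.03 ± 0.13), which packs mitochondrial DNA, did not pass, and neither did Polg (-0.35), Tfb1m (-0.24) and Tfb2m (-0.14).

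Most markers of tubule cells were also lower in UUO than in sham. Of 10 proximal tubule markers 9 fell (median -3.38), and their summed level was 13299 to 16270 CPM in sham, 1002 to 1769 CPM in UUO and 797 to 2048 CPM in UUO_Si, with none at 0 in any library. Loop of Henle and distal tubule markers fell in 9 of 10 (10497 to 11451, 2242 to 2567 and 2253 to 3566 CPM summed) and collecting duct markers in 7 of 8 (409 to 490, 109 to 177 and 129 to 208 CPM). Pvalb alone was at 0 in some libraries. All 10 fibroblast and all 10 macrophage markers rose (medians 3.95 and 3.18). Summed subunits were at 2954 to 3129 CPM in sham, 1171 to 1739 CPM in UUO and 1171 to 1955 CPM in UUO_Si. The part of the markers in the fall of complex I was not tested.

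In obstructed kidneys on the Si-based diet, compared with the same 3 sham libraries, 32 of 35 subunits fell and 3 did not pass (median -1.04), and 5 of 7 assembly factors fell (median -0.54). Across all genes 25.5% fell, 27.2% rose and 52.7% changed in either direction. Without overlap below sham were 31 subunits and 4 factors, against 21.8% of all genes, and Ndufa4l2 lay above sham without overlap, against 24.0% of all genes. Ndufs7 (-1.48 ± 0.11) and Ndufa8 (-1.48 ± 0.19) had the lowest values among subunits, and Ndufaf6 was at -1.41 ± 0.16. Among subunits Ndufb4 (-0.40), Ndufc2 (-0.17) and Ndufa3 (-0.01) did not pass, nor did Ndufaf5 (-0.42 ± 0.23), Ndufaf2 (0.12) or Ndufa4l2 (0.73 ± 0.37). Ndufb4 fell without the 4 receptor-gene libraries (-0.68, edgeR adjusted p = 0.0127) and with the replicate number as a block (-0.64, edgeR adjusted p = 0.0338). Without sample codes RM6 and RM7 Ndufb4 fell too (-0.59, edgeR adjusted p = 0.0126). That setting leaves out the same libraries except sham replicate 3, which it keeps, so it is not a separate check. Without sham replicate 1 Ndufaf5 fell (-0.68, edgeR adjusted p = 0.0137) while Ndufaf7 (-0.27, edgeR adjusted p = 0.145) and Ndufaf1 (-0.43, edgeR adjusted p = 0.0751) did not pass. Ndufs4 did not pass without sham replicate 2 (-0.46, edgeR adjusted p = 0.0595) nor Ndufb9 without sham replicate 3 (-0.71, edgeR adjusted p = 0.0568).

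The comparison of UUO_Si with UUO addressed what the diet did to these genes in the obstructed kidney. None of the 44 genes passed (edgeR adjusted p = 0.999 for each), as was so for all 16752 genes (0% called). No member passed with DESeq2, which called 2 of 16696 genes, or with limma-voom, which called 0. At an unadjusted p under 0.05 there were 3 of 44 members with edgeR, where 3.74% of all genes reached that level. Subunits had a median of 0.04, with 12 of 35 below 0, and the 7 assembly factors of the pattern were above 0 (0.08 to 0.31, median 0.13). Ndufaf8, outside the pattern, was at -0.39 ± 0.30 under 1810043H04Rik, and of the 13 assembly factors with other names 7 were above and 6 below 0 (median 0.02). Of all genes 49.7% were below 0. The subunit median was -0.07 to 0.10 when single libraries were left out, and 3 (without UUO_Si replicate 5) to 25 (without UUO_Si replicate 6) of the 35 subunits were then below 0.

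The 5 genes with the smallest p in this comparison did not pass. Ndufa4 was at 33.2, 31.6, 31.2, 23.5, 27.4 and 30.9 CPM in UUO replicates 1 to 6 and at 50.2, 42.02, 39.7, 40.2, 27.6 and 35.6 CPM in UUO_Si (0.41 ± 0.13, unadjusted p = 0.00495, edgeR adjusted p = 0.999). UUO_Si replicates 1 to 4 and 6 lay above all UUO libraries, and UUO_Si replicate 5 lay among them. Ndufaf6 was at 7.07, 8.01, 8.30, 6.71, 5.58 and 7.61 CPM in UUO and 9.65, 8.63, 10.6, 8.998, 9.55 and 6.16 CPM in UUO_Si (0.31 ± 0.14). Here UUO_Si replicate 6, the highest library of most subunits, was the lowest of its group. Ndufs1 was at 65.6, 75.7 and 88.03 CPM (lowest, median, highest) in UUO and 70.9, 86.6 and 96.96 CPM in UUO_Si (0.17 ± 0.08), Ndufa6 at 65.4, 75.9 and 82.4 CPM and 74.2, 81.6 and 93.99 CPM (0.15 ± 0.08) and Ndufaf5 at 6.27, 8.04 and 10.3 CPM and 7.04, 9.95 and 11.8 CPM (0.28 ± 0.18). The groups overlapped in all 44 genes, against 0.203% of all genes without overlap.

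The remaining members lay between the diets at log2 fold changes from -0.33 ± 0.26 for Ndufa4l2 and -0.21 for Ndufa11 to 0.20 for Ndufa1. By module the medians were 0.04 for N, 0.06 for Q, 0.02 for the proximal and 0.02 for the distal membrane arm. Complexes II to V had medians of 0.03, 0.02, 0.02 and 0.05. No marker passed between the diets. All 10 fibroblast markers were below 0 (median -0.51, 9 at an unadjusted p under 0.05), and 9 of 10 macrophage markers (median -0.11, 0 at that level). Above 0 were 9 of 10 loop of Henle and distal tubule markers (median 0.38, 4 at that level), 6 of 8 collecting duct markers (median 0.18, 2) and 6 of 10 proximal tubule markers (median 0.15, 0). The part of these markers in the diet values of complex I was not tested. Ppargc1a was at 79.7 ± 5.53 CPM in UUO and 98.5 ± 14.9 CPM in UUO_Si (0.31 ± 0.10) and Esrra at 16.1 ± 2.56 CPM and 17.3 ± 0.859 CPM, and neither passed. The bracketed codes in the sample names, whose meaning was not given, never crossed groups: UUO libraries had codes starting RM3 or RM6, and UUO_Si libraries RM4 or RM7. Codes RM6 and RM7 were those of UUO replicates 5 and 6 and UUO_Si replicate 6. These are the obstructed libraries rich in receptor genes and the ones most often among the highest for subunits. Code and diet therefore cannot be told apart. Sham libraries alone had codes starting RM1, so code and operation cannot be told apart either. With RM3 against RM4 alone the subunit median was 0.09 and the factor median 0.19.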

How the data were processed

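RNA of 15 kidney libraries, prepared with the SMARTer Stranded Pico kit per the labels' protocols, was sequenced. The values the authors deposited are unnormalised expected counts per gene, read as such from the values, with 79.0% to 83.0% of a library's values whole. For the work before the authors deposited the counts, the submitters' processing notes name mm10, TopHat2 2.1.1 and Cuffdiff 2.2.1. Whether these tools made the expected counts is not stated. What each did, the strand setting and the annotation are not given in the sources used here. Exons of 18 of the 44 genes overlap another gene in GENCODE M21 (GRCm38), 16 on the opposite strand. Whether reads of the other gene entered their counts is not known.

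Counts were rounded, filtered (filterByExpr, minimum count 10), scaled with TMM and fitted in edgeR 4.0.16 (R 4.3.3) with a mean per group over all libraries (robust quasi-likelihood). Standard errors came from the F statistic, and per-library log2 levels used a prior count of 2. Levels per kilobase used APPRIS principal transcripts. Alternatives were RLE and upper-quartile scaling, other filters, DESeq2 1.42.0, limma-voom (limma 3.58.1), fits of 2 groups, a replicate block, and fits without single libraries, sample codes or the 4 receptor-gene libraries. The steps were tested on simulated data. Members, lists and the rule for named genes (core subunits, largest and smallest changes, all factors, genes that did not pass, smallest p between diets) were chosen with earlier results of these data known. One member enters the counts and medians but is not reported by name here.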

Additional observations from a re-analysis of the deposited data

Results flagged for a closer look

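Of 86 sets of 6 libraries (43 genes in UUO and in UUO_Si), 7 held a library far from the other 5, its gap to the nearest exceeding 0.625 of the range; chance gives about 1 in 20. All 7 were in UUO_Si. UUO_Si replicate 6 was the highest library for Ndufb9 (94.6 CPM, next 58.9), Ndufv3 (63.1, next 52.2), Ndufb5 (46.0, next 26.2) and Ndufa11 (31.1, next 21.8). UUO_Si replicate 5 was the lowest for Ndufa5 (26.0 CPM, next 42.2) and Ndufa2 (21.2, next 30.4), and UUO_Si replicate 3 was the lowest for Ndufb2 (10.7, next 13.4). UUO_Si replicate 6 is among the libraries rich in receptor genes (985 detected), and UUO_Si replicate 5 had the smallest total of its group (7.75 M counts). The part of either in these levels was not tested.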

How the results depend on the processing

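The number of members called moved by less than 1.5 times under every alternative run: 37 to 41 of 44 for UUO against sham (40 as reported), 37 to 39 for UUO_Si against sham (38) and 0 throughout between the diets. The subunit median ran from -1.21 to -0.95 for UUO against sham and from -1.23 to -0.96 for UUO_Si against sham. Genes near 0 changed sign without passing under either setting. For UUO against sham, Ndufa3 was at 0.0213 with upper-quartile scaling, 0.000637 with no filter and -0.160 to 0.0711 when single libraries were left out. Ndufaf2 was at -0.0115 with the stricter filter, -0.00832 with limma-voom, -0.0488 without codes RM6 and RM7, -0.0583 without the 4 receptor-gene libraries and -0.0135 to 0.139 when single libraries were left out. For UUO_Si against sham, Ndufa3 was at 0.0467 with upper-quartile scaling, 0.0257 with no filter and -0.179 to 0.0719 when single libraries were left out. The factor median of UUO_Si against sham was -0.68 without sham replicate 1. Ndufa4l2 did not pass with limma-voom (0.782) or the replicate block (0.593), and Ndufb4 passed with limma-voom in UUO (-0.554) and UUO_Si (-0.571), without codes RM6 and RM7 in both (-0.613 and -0.590) and with the replicate block in UUO_Si (-0.641). The causes were not tested. Replicate numbers did not pair the libraries: same-numbered libraries correlated at -0.39 to 0.75, and 1 of 6 pairs of UUO and UUO_Si correlated best with its own number. With the replicate block 39 members were called for UUO against sham, 39 for UUO_Si against sham and 0 between the diets. Depth limits Ndufa4l2 most, with 13 counts in its lowest library.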
